A study of Arabidopsis thaliana with 4 samples.

Results

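The genes described here are 10 Arabidopsis genes of the general phenylpropanoid pathway and of the branch that makes monolignols. They are PAL1 (AT2G37040), PAL2 (AT3G53260), PAL4 (AT3G10340), C4H (AT2G30490), 4CL1 (AT1G51680), 4CL3 (AT1G65060), HCT (AT5G48930), C3'H (AT2G40890, also CYP98A3), CCoAOMT1 (AT4G34050) and COMT1 (AT5G54160, also OMT1). They were chosen by locus ID and are 10 of the 24750 genes listed in the count table. All 10 passed the filter of at least 5 counts summed over the libraries.

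The libraries were made from native polyadenylated RNA by Oxford Nanopore direct RNA sequencing (DRS), in which each read is 1 RNA molecule and no PCR copies are made. Floral buds (2 libraries) were unopened buds of Col-0 plants that had been raised on plates for 14 days and then in soil for another 3 weeks. Seedlings (2 libraries) were Col-0 plants harvested after 14 days on MS plates with sucrose, and both stages were kept under long days. Organ, age and growth medium differ together between floral buds and seedlings and cannot be told apart, and in bulk tissue fewer cells of a type and less RNA per cell cannot be told apart either.

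Phenylpropanoid metabolism starts when phenylalanine ammonia-lyase (PAL) removes ammonia from phenylalanine. Cinnamate 4-hydroxylase (C4H) and 4-coumarate:CoA ligase (4CL) then make p-coumaroyl-CoA, from which flavonoids, sinapate esters, coumarins and the monolignols of lignin are all derived. HCT and C3'H add the next hydroxyl group on a shikimate ester, and the methyltransferases CCoAOMT1 and COMT1 add methoxyl groups of guaiacyl and syringyl lignin. Lignin stiffens xylem vessels and the Casparian strip of the root endodermis, and in anthers it thickens the endothecium, whereas flavonoids and hydroxycinnamoyl conjugates coat pollen.

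The library totals ran from 669401 to 796885 estimated counts in floral buds and from 579416 to 620120 in seedlings. At this depth 3 counts, the least taken as a level, stood for 3.74 to 4.24 normalized CPM in floral buds and 5.08 to 5.30 in seedlings. Normalized CPM are counts scaled to a common total by library size times an upper-quartile factor. The stage labels were checked with marker genes. All 5 floral organ markers and all 5 markers of the tapetum and pollen wall were higher in floral buds, and both leaf photosynthesis markers were higher in seedlings, in the quasi-likelihood test of edgeR. Of these, the tapetum gene MS1, with 5 counts in each floral bud library, lost its call when either seedling library was left out. The call of MS1 was also lost by DESeq2 (false discovery rate, FDR, 0.272) and by the edgeR test with the replicate number as a block (FDR 0.120). The common dispersion over all genes corresponded to a biological coefficient of variation of 14.6%, and no gene was given a variance of its own.

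Between the stages, 3 of the 10 genes were higher in floral buds and 0 were higher in seedlings. A gene was called differentially expressed (a DEG) at an FDR below 0.05 and a fold change above 2. The FDR came from the quasi-likelihood test of edgeR with Benjamini-Hochberg adjustment over all 18647 genes tested. The genes that passed were 4CL3, PAL4 and PAL1. Over all genes tested, 10.3% were called higher in floral buds and 9.52% higher in seedlings. The median log2 fold change, floral buds over seedlings, was 0.23 over the 10 genes and 0.06 over all genes tested. In normalized CPM, both floral bud libraries lay above both seedling libraries for 5 of the 10 genes (PAL1, PAL4, 4CL1, 4CL3 and COMT1), a separation that 30.5% of all tested genes showed. The opposite separation was found for HCT alone, against 27.0% of all tested genes, and the other 4 genes overlapped between the stages. The 0 genes called higher in seedlings stayed at 0 by DESeq2, limma-voom and edgeR's exact test, and none of the genes with a negative log2 fold change had an unadjusted p below 0.05.

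**Figure D1:**
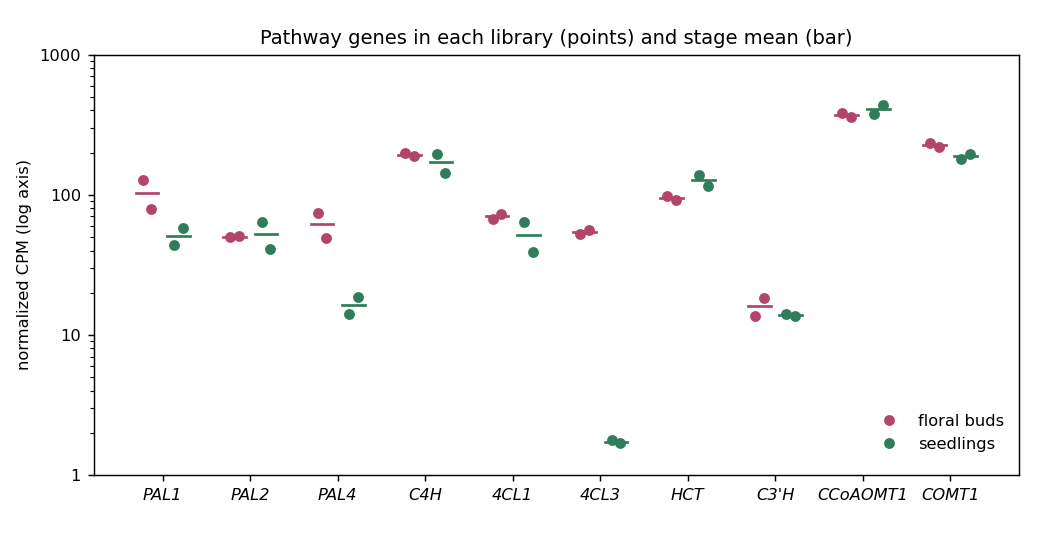
Normalized CPM (log axis) of each of the 10 genes in every library, with floral buds on the left of each pair and seedlings on the right. Points are libraries and horizontal bars are the means of the 2 libraries of a stage. 4CL3 lies above 50 CPM in both floral bud libraries and below 2 CPM in both seedling libraries, whereas CCoAOMT1 is the highest in every library.

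PAL catalyses the entry step, and of its 3 genes here PAL4 and PAL1 were higher in floral buds while PAL2 was not called. PAL4, on the plus strand of chromosome 3 (3203988 to 3208135 of TAIR10.1, the build of all positions given here, with 3 exons), had 59 and 35 counts in the floral bud libraries, against 8 and 11 in the seedling libraries. All of its floral bud values lay well above its seedling values. These were 61.5 ± 17.0 CPM in floral buds and 16.4 ± 3.20 CPM in seedlings (SD, n = 2 each), which is a log2 fold change of 1.90 with a standard error of 0.41 (FDR 3.78e-05 from the quasi-likelihood test of edgeR). PAL4 stayed a DEG whichever library was left out, at log2 fold changes of 1.59 to 2.13.

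PAL1, on the minus strand of chromosome 2 (15557367 to 15560755, 2 exons), had 103 and 56 counts in floral buds, against 25 and 34 in seedlings. The first floral bud replicate was the highest of the libraries and the second was closer to the seedlings, though the stages did not overlap. PAL1 averaged 103.7 ± 34.8 CPM in floral buds and 50.9 ± 9.54 CPM in seedlings (SD, n = 2 each), which is a log2 fold change of 1.03 with a standard error of 0.29 (FDR 0.00256 from the quasi-likelihood test of edgeR). The 95% interval from that error, 0.47 to 1.60, reached below the limit of a 2-fold change. Without floral buds replicate 1 the log2 fold change was 0.64 (FDR 0.241), and without seedlings replicate 1 it was 0.84 (FDR 0.0669), so that the call depended on single libraries. The call was also lost by DESeq2 (log2 fold change 1.02, FDR 0.129) and by limma-voom (1.00, FDR 0.112).

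PAL2, on the minus strand of chromosome 3 (19744018 to 19747114, 2 exons), had 40 and 36 counts in floral buds, against 36 and 24 in seedlings. Its floral bud values lay within the range of the seedling values. PAL2 averaged 50.3 ± 0.70 CPM in floral buds and 52.1 ± 16.2 CPM in seedlings (SD, n = 2 each), and the 95% interval of its log2 fold change ran from -0.70 to 0.61 (FDR 0.951 by edgeR). PAL1 and PAL2 are the closest pair of the family, with 90.8% identical residues over the 715 aligned positions of their proteins and 83.8% identical bases in their coding sequences. PAL4 is closer to PAL3, at 83.5% of residues, than to PAL1, at 80.7%, or PAL2, at 79.9%. How reads that could map to more than 1 family member were assigned is not given in the sources used here.

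PAL3, the fourth gene of the family and outside the 10, was higher in seedlings. It had 2 and 1 counts in floral buds, against 7 and 8 in seedlings, 6.53-fold higher in seedlings by the ratio of summed counts (95% exact counting interval 1.85 to 35.2). The call (FDR 0.0256 from the quasi-likelihood test of edgeR) was lost whichever library was left out, with FDR values of 0.0752 to 0.143 and by DESeq2 (FDR 0.267).

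Within the PAL reads of a library, the share of PAL4 was 28.9% (95% Wilson interval 23.1 to 35.5%) and 27.3% (20.4 to 35.6%) in the floral bud libraries. In the seedling libraries it was 10.5% (5.43 to 19.4%) and 14.3% (8.17 to 23.8%). The interval of seedlings replicate 1 touched neither floral bud interval, whereas that of seedlings replicate 2 overlapped both. PAL2 gave 19.6% (14.7 to 25.6%) and 28.1% (21.1 to 36.5%) of the PAL reads in floral buds, against 47.4% (36.5 to 58.4%) and 31.2% (21.9 to 42.2%) in seedlings. PAL1 gave 50.5% (43.7 to 57.3%) and 43.8% (35.5 to 52.4%) in floral buds, against 32.9% (23.4 to 44.1%) and 44.2% (33.6 to 55.3%) in seedlings. PAL1 was thus the most frequent PAL transcript in floral buds replicates 1 and 2 and in seedlings replicate 2, and PAL2 in seedlings replicate 1. These intervals cover counting error only. No test was made of the shares, since the exact permutation test of 2 against 2 libraries cannot go below p = 0.33.

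C4H, the cytochrome P450 that follows PAL, lies on the minus strand of chromosome 2 (12993625 to 12996012, 3 exons). It had 160 and 133 counts in floral buds, against 111 and 85 in seedlings, or 193.6 ± 8.16 CPM in floral buds and 170.0 ± 36.7 CPM in seedlings (SD, n = 2 each). The stages overlapped, and the 95% interval of the log2 fold change was -0.21 to 0.59 (FDR 0.577 from the quasi-likelihood test of edgeR).

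4CL, which activates hydroxycinnamates with coenzyme A, held the largest difference among the 10 genes. 4CL3, on the minus strand of chromosome 1 (24167202 to 24171635, 6 or 7 exons), is known as the 4CL gene associated with flavonoid synthesis. It had 42 and 40 counts in floral buds, against 1 count in each seedling library. The ratio of summed counts scaled for depth was 31.4 (95% exact counting interval 8.42 to 264) in favour of floral buds. It averaged 54.4 ± 2.94 CPM in floral buds and 1.73 ± 0.05 CPM in seedlings (SD, n = 2 each), with an FDR of 1.10e-11 from the quasi-likelihood test of edgeR. 4CL3 stayed a DEG whichever library was left out, with FDR values up to 3.63e-07. Among the 18647 genes tested, ordered from the highest mean CPM down, 4CL3 stood at place 3564 in floral buds and at place 16948 in seedlings.

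4CL1, also on the minus strand of chromosome 1 (19158746 to 19161737, 2 to 4 exons), is associated with the supply of monolignols. It had 54 and 52 counts in floral buds, against 36 and 23 in seedlings, or 70.4 ± 4.35 CPM in floral buds and 51.3 ± 17.4 CPM in seedlings (SD, n = 2 each). Both floral bud values were above both seedling values by a small margin, and the 95% interval of the log2 fold change was -0.15 to 1.07 (FDR 0.316 by edgeR). The paralogs outside the 10 did not pass the test either. 4CL2 had 25 and 18 counts in floral buds, against 20 and 12 in seedlings (FDR 0.972), and 4CL5 had 17 and 12 in floral buds, against 9 and 5 in seedlings (FDR 0.464, both from the quasi-likelihood test of edgeR). 4CL5 overlaps MKK5 on the opposite strand by 459 bp, a gene with 20 and 19 counts in floral buds, against 14 and 11 in seedlings, so its counts are uncertain.

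The make-up of the 4CL reads thus differed between the stages. 4CL3 gave 30.4% (95% Wilson interval 23.4 to 38.6%) and 32.8% (25.1 to 41.5%) of them in floral buds, against 1.52% (0.268 to 8.10%) and 2.44% (0.432 to 12.6%) in seedlings. These intervals did not touch between any floral bud and any seedling library. For each read of 4CL1 there were 0.778 and 0.769 reads of 4CL3 in floral buds, against 0.0278 and 0.0435 in seedlings. The proteins of 4CL1 and 4CL3 have 61.5% identical residues over 551 aligned positions, whereas 4CL1 and 4CL2 have 83.8%.

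**Figure D2:**
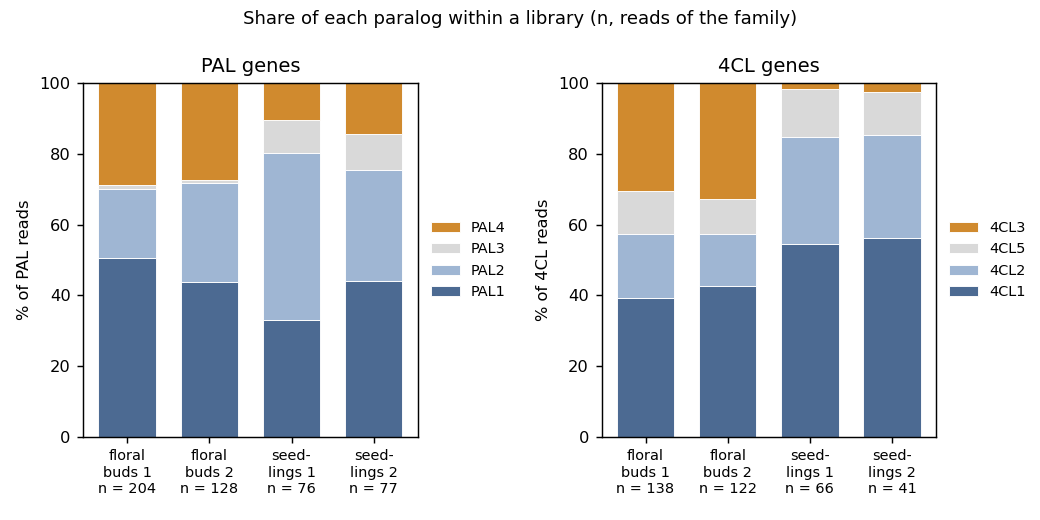
Share of the reads of the PAL family (left) and the 4CL family (right) given by each paralog, as stacked percentages, in each of the floral bud and seedling libraries. The number under each bar is the family's reads in that library, from 41 to 204. The uppermost segment is PAL4 or 4CL3, and the 4CL3 segment takes 30.4% and 32.8% in floral buds, against 1.52% and 2.44% in seedlings.

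HCT, the hydroxycinnamoyltransferase that makes the shikimate ester, lies on the minus strand of chromosome 5 (19836299 to 19838235, 2 exons). It had 78 and 65 counts in floral buds, against 79 and 68 in seedlings, whose libraries were shallower. HCT averaged 94.5 ± 3.82 CPM in floral buds and 127.3 ± 17.1 CPM in seedlings (SD, n = 2 each), and was the only one of the 10 with both floral bud libraries below both seedling libraries. The difference did not pass the test, with a 95% interval of the log2 fold change of -0.91 to 0.05 (FDR 0.210 from the quasi-likelihood test of edgeR). Per read of C4H there were 0.488 and 0.489 reads of HCT in floral buds, against 0.712 and 0.80 in seedlings.

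C3'H, which hydroxylates that ester, lies on the minus strand of chromosome 2 (17058053 to 17060652, 3 exons) and was the least abundant of the 10 in floral buds. It had 11 and 13 counts in floral buds, against 8 in each seedling library, or 16.0 ± 3.29 CPM in floral buds and 13.8 ± 0.40 CPM in seedlings (SD, n = 2 each). At this depth the 95% interval of its log2 fold change, -0.93 to 1.33, did not exclude a 2-fold increase (FDR 0.859 by edgeR). Its end overlaps the cystatin gene CYSA on the opposite strand by 70 bp. CYSA had 83 and 54 counts in floral buds, against 116 and 113 in seedlings, and since the strand of a read was not used to assign it, the C3'H counts are uncertain. 4CL1 likewise overlaps AT1G51670 by 24 bp on the opposite strand, a gene with 7 and 8 counts in floral buds, against 0 and 1 in seedlings.

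The methyltransferases were the most abundant of the 10. CCoAOMT1, which methylates caffeoyl-CoA, lies on the plus strand of chromosome 4 (16310409 to 16312308, 3 or 4 exons) and had 305 and 256 counts in floral buds, against 214 and 257 in seedlings. It averaged 370.8 ± 13.1 CPM in floral buds and 406.6 ± 40.8 CPM in seedlings (SD, n = 2 each), with overlapping values and a 95% interval of the log2 fold change of -0.46 to 0.19 (FDR 0.638 by edgeR). COMT1, which methylates caffeic acid derivatives and also flavonols, lies on the plus strand of chromosome 5 (21981902 to 21984399, 4 exons) and had 187 and 154 counts in floral buds, against 102 and 115 in seedlings. It averaged 225.2 ± 10.98 CPM in floral buds and 187.5 ± 10.5 CPM in seedlings (SD, n = 2 each), a separation smaller than a 2-fold change, and the 95% interval of its log2 fold change was -0.12 to 0.65 (FDR 0.370 by edgeR). The summed level of both was 613 and 579 CPM in floral buds, against 558 and 630 CPM in seedlings, a ratio of means of 1.00.

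Summed by step over the 10 genes alone, the levels of PAL and of 4CL were above those of seedlings in both floral bud libraries. The sum of HCT and C3'H was below that of seedlings in both. PAL1, PAL2 and PAL4 together gave 252 and 179 CPM in floral buds, against 122 and 117 CPM in seedlings, 1.81 times the seedling mean. 4CL1 and 4CL3 together gave 120 and 130 CPM in floral buds, against 65.3 and 40.7 CPM in seedlings, 2.35 times the seedling mean. Paralogs outside the 10 made these differences smaller. With PAL3 added, the PAL genes gave 254 and 181 CPM in floral buds, against 134 and 130 CPM in seedlings. With 4CL2 and 4CL5 added, the 4CL genes gave 172 CPM in each floral bud library, against 116 and 69.5 CPM in seedlings. HCT and C3'H together gave 111 and 110 CPM in floral buds, against 154 and 129 CPM in seedlings, a ratio of 0.783. Most of this sum was HCT, which was not called. C3'H did not share the direction, at 16.0 CPM in floral buds and 13.8 CPM in seedlings. All 10 genes gave 1295 and 1186 CPM in floral buds, against 1094 and 1061 CPM in seedlings, a ratio of 1.15. These sums were not tested.

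Levels of different genes were compared as CPM per kilobase of the longest annotated transcript. Since each read is 1 RNA molecule, counts need not rise with transcript length, and the order in CPM is given where it differs. In floral buds the order from the top was CCoAOMT1 (239 CPM per kb), COMT1 (150), C4H (92.9) and HCT (52.5), with no overlap between the libraries of neighbours. PAL1 (35.4), 4CL1 (31.7), 4CL3 (26.1) and PAL4 (22.6) followed, and the library values of PAL1 overlapped those of the 3 genes after it. PAL2 (17.4) and C3'H (8.50) came last. In CPM without division by length, PAL1 stood above HCT and PAL4 above 4CL3. In seedlings the order at the top was the same, with CCoAOMT1 at 262, COMT1 at 125, C4H at 81.6 and HCT at 70.7 CPM per kb, of which C4H and HCT overlapped. 4CL1 (23.1), PAL2 (18.05) and PAL1 (17.4) followed with overlapping values, and C3'H (7.34), PAL4 (6.02) and 4CL3 (0.831) ended the order. In CPM alone, PAL2 stood above 4CL1 and PAL4 above C3'H in seedlings.

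**Figure D3:**
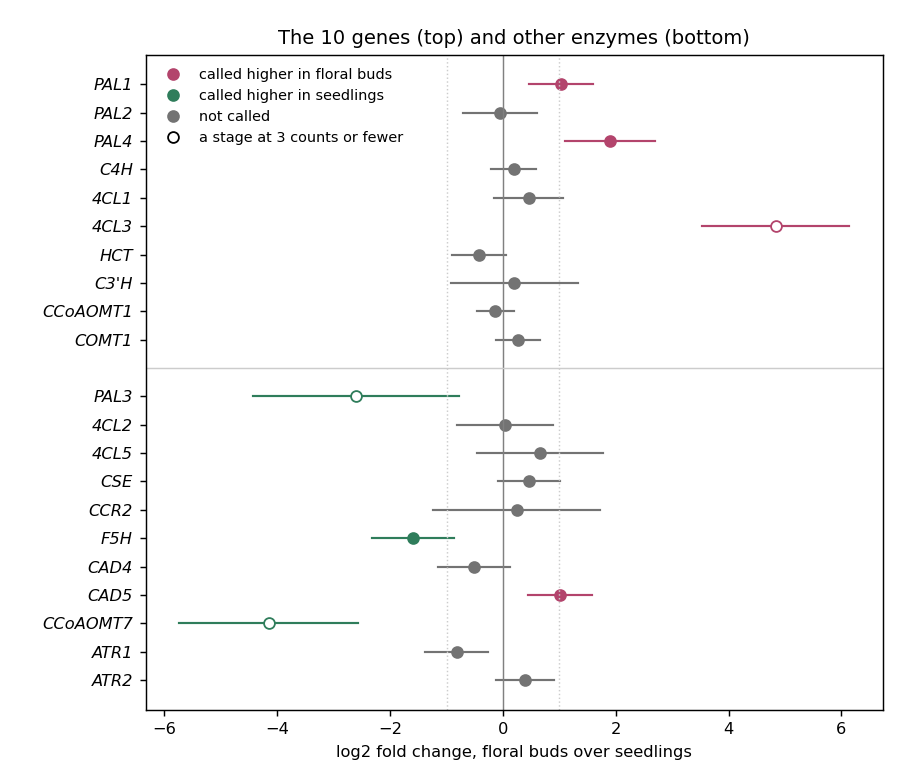
Log2 fold change, floral buds over seedlings, of the 10 genes (upper block) and of 11 other enzymes of the core pathway (lower block). Horizontal lines are 95% intervals from the standard error of edgeR's quasi-likelihood fit, dotted lines mark a 2-fold change, and open points are genes at 3 counts or fewer in both libraries of a stage, whose fitted values depend on the prior count. The intervals of PAL4 and 4CL3 lie wholly above a 2-fold change and that of PAL1 does not. CCR1, at or under 3 counts in every library, is left out.

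The 250 bases before the annotated start of the 4CL3 and PAL4 genes are shown because these genes differed most between the stages. They are read 5′ to 3′ along the gene from the TAIR10.1 sequence of RefSeq, at chr1:24171636-24171885 (minus strand) for 4CL3 and chr3:3203738-3203987 (plus strand) for PAL4. Capitals mark AC elements, short sites bound by MYB factors in many lignin gene promoters.
4CL3: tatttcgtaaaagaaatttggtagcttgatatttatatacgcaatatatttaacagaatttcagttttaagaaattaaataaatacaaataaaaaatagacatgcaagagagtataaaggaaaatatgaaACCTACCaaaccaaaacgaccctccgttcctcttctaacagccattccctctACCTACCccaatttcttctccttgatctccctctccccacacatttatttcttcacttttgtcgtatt
PAL4: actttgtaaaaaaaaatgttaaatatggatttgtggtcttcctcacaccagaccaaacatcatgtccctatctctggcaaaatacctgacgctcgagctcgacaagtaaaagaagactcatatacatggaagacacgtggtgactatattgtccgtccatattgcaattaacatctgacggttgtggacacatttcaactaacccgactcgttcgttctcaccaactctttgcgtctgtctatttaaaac
The letters searched were ACCTACC (AC-I), ACCAACC (AC-II) and ACCTAAC (AC-III) on both strands, from 250 bases before to 50 bases after the start, and these motifs do not overlap at the sites found. 4CL3 held AC-I at 2 places, 120 and 68 bases before the start, whereas PAL4 held none of the 3 motifs.

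Of the 10 genes, 6 held at least 1 of these motifs, against 7.29% of the windows of all 27443 protein-coding genes of the nuclear chromosomes. Motifs were not particular to the 10, since 5 of 12 other enzymes of the core pathway (41.7%), described below, held at least 1. By motif, AC-I was in 1.38%, AC-II in 3.29% and AC-III in 2.88% of all windows. PAL1 and PAL2, which differed in their calls, each held 1 AC-II, 39 and 4 bases into the transcribed region, and the longest run of letters that their windows share (15 bases) includes it. The sites of PAL1, PAL2, C3'H, CCoAOMT1 and HCT are shown with their neighbouring bases, the motif in capitals and the strand that of the gene. They lie at chr2:15560706-15560728 (PAL1), chr3:19747094-19747122 (PAL2), chr2:17060657-17060685 (C3'H), chr4:16310185-16310213 (CCoAOMT1), chr5:19838308-19838336 (HCT, AC-II) and chr5:19838207-19838235 (HCT, AC-I).
PAL1: ctcgtagtctcACCAACCgcgaa
PAL2: caaaaagtctcACCAACCgcaaaacgctt
C3'H: taaatcggttcACCAACCccctccctaat
CCoAOMT1: ccaagagattcACCTACCacggtacactt
HCT: ggaacgggtttACCAACCccggatagaaa
HCT: ggtcgtggggcGGTAGGTgaaggattacg
In CCoAOMT1 the AC-I lies 213 bases before the start and in C3'H the AC-II lies 22 bases before it. HCT held AC-II at 90 bases before the start and AC-I on the opposite strand, 12 bases after it. C4H, 4CL1 and COMT1, like PAL4, held none of the motifs in this window. Of the genes called higher in floral buds, 4CL3 and PAL1 thus held a motif and PAL4 did not, and of the 7 genes not called 4 held one. The matches are of letters only, and binding was not measured.

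Among the 12 other enzymes of the core pathway, 1 was higher in floral buds and 3 were higher in seedlings, with a median log2 fold change of 0.14 (0.03 without CCR1, which was at or under 3 counts in both stages). CAD5, a cinnamyl alcohol dehydrogenase that makes the monolignols, had 88 and 68 counts in floral buds, against 27 and 32 in seedlings (log2 fold change of 1.01 with a standard error of 0.29, FDR 0.00327 from the quasi-likelihood test of edgeR). It lost the call without floral buds replicate 1 (0.92) and without seedlings replicate 1 (0.91), each under the 2-fold limit, and by DESeq2 (FDR 0.109). Its partner CAD4 had 31 and 37 counts in floral buds, against 31 and 44 in seedlings (FDR 0.265). CAD5 gave 73.9% (95% Wilson interval 65.4 to 81.0%) and 64.8% (55.3 to 73.2%) of the reads of the pair in floral buds, against 46.6% (34.3 to 59.2%) and 42.1% (31.6 to 53.3%) in seedlings. The interval of floral buds replicate 2 overlapped that of seedlings replicate 1, and no other floral bud interval touched a seedling interval.

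F5H, the hydroxylase that opens the syringyl and sinapate branch, was higher in seedlings. It had 19 and 15 counts in floral buds, against 42 and 37 in seedlings. For F5H the log2 fold change was -1.60 with a standard error of 0.37 (FDR 0.000151 from the quasi-likelihood test of edgeR, and 0.111 when tested against a 2-fold change). CCoAOMT7, a second caffeoyl-CoA methyltransferase with 59.1% of residues identical to CCoAOMT1, had 0 and 2 counts in floral buds, against 16 and 15 in seedlings. The summed counts of CCoAOMT7 were 20.2-fold higher in seedlings (95% exact counting interval 5.15 to 175, FDR 3.86e-06 by edgeR). The far more abundant CCoAOMT1 did not pass the test, and the difference between the fold changes of the 2 genes was not tested. PAL3, described above, was the third.

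The 8 remaining enzymes were not called. ATR1, a reductase that passes electrons to the pathway's P450 enzymes, had 45 and 39 counts in floral buds, against 52 and 62 in seedlings, with a log2 fold change of -0.82 that passed the FDR limit (0.0197 from the quasi-likelihood test of edgeR) but not the fold limit. ATR2, the other reductase, had 87 and 73 counts in floral buds, against 46 and 47 in seedlings (FDR 0.301), and the esterase CSE had 74 and 66 in floral buds, against 35 and 43 in seedlings (FDR 0.247). The cinnamoyl-CoA reductase CCR2 had 8 and 6 counts in floral buds, against 5 and 4 in seedlings (FDR 0.872). CCR2 overlaps NRAMP1 by 132 bp on the opposite strand, so its counts are uncertain. NRAMP1 had 19 and 7 counts in floral buds, against 51 and 30 in seedlings. CCR1, the reductase of lignin synthesis, was listed at 2 counts in each floral bud library and at 1 and 0 in seedlings, too few for a fold change. The annotated noncoding gene AT1G05213 overlaps CCR1 by 2457 bp on the opposite strand and was not analysed here. Whether reads of CCR1 were joined to AT1G05213 was not tested. The protein-coding gene NRAMP6 also overlaps CCR1 on the opposite strand, by 516 bp.

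**Figure D4:**
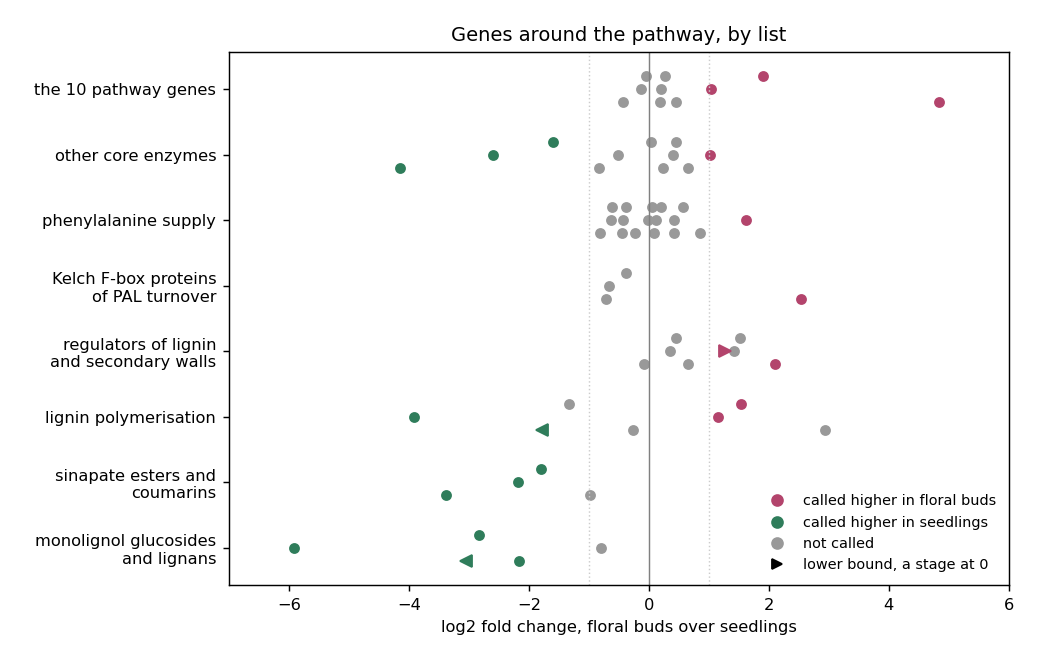
Log2 fold change, floral buds over seedlings, of the tested genes of 8 lists around the pathway. Each point is a gene, coloured by its call, triangles are lower bounds for genes at 0 in both libraries of a stage, dotted lines mark a 2-fold change, and genes at or under 3 counts in every library are left out. The lists of sinapate esters and of monolignol glucosides hold calls only on the seedling side, and the 10 pathway genes only on the floral bud side.

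Of 18 genes that make phenylalanine from the shikimate pathway, 1 was higher in floral buds and 0 were higher in seedlings, with a median log2 fold change of 0.02 (0.05 without the 1 gene at or under 3 counts in both stages). The gene that passed was CM1, a chorismate mutase, with 37 and 28 counts in floral buds, against 8 in each seedling library (log2 fold change of 1.62 with a standard error of 0.46, FDR 0.00309 from the quasi-likelihood test of edgeR). Without floral buds replicate 1 its FDR was 0.0506, and by DESeq2 0.129. DHS2 (log2 fold change of -0.81, FDR 0.00276) and ADT5 (0.85, FDR 0.0324) met the FDR but not the fold limit. Of the 4 Kelch F-box genes whose proteins mark PAL for degradation, KFB39 was higher in floral buds, with 53 and 25 counts in floral buds, against 5 in each seedling library (log2 fold change of 2.54 with a standard error of 0.49, FDR 2.99e-06 by edgeR, 0.0576 by limma-voom). KFB39 overlaps AT2G44140 by 1445 bp on the opposite strand, so its counts are uncertain. The median of the 4 was -0.52, and the other 3 were not called.

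The enzymes that couple monolignols into lignin were divided. Of 7 laccases and peroxidases, 2 were higher in floral buds and 2 in seedlings, with a median log2 fold change of -0.27. The laccase LAC4 had 54 and 34 counts in floral buds, against 10 and 13 in seedlings (log2 fold change 1.53, FDR 0.000940 from the quasi-likelihood test of edgeR), and lost the call without floral buds replicate 1 (FDR 0.0657) and by DESeq2 (FDR 0.0825). The peroxidase PRX71 had 39 and 31 counts in floral buds, against 12 in each seedling library, and lost the call (FDR 0.0267 by edgeR) whichever library was left out, with FDR values of 0.0742 to 0.146. PRX72 had 0 and 3 counts in floral buds, against 20 and 18 in seedlings (FDR 5.89e-07). PRX64, a peroxidase of the Casparian strip, had 0 counts in both floral bud libraries, against 6 and 10 in seedlings, at least 3.45-fold higher in seedlings when floral buds are set at 3 counts per library.

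Among the listed genes of sinapate esters, coumarins, monolignol glucosides and lignans, those that passed the test were higher in seedlings. Of 5 tested genes of sinapate ester and coumarin synthesis, 0 were higher in floral buds and 3 were higher in seedlings, with a median log2 fold change of -1.80 (-1.99 without the gene at or under 3 counts in both stages). SNG1, the sinapoylglucose:malate sinapoyltransferase, had 30 and 29 counts in floral buds, against 78 and 80 in seedlings (log2 fold change of -1.80 with a standard error of 0.28, FDR 4.93e-09 from the quasi-likelihood test of edgeR). REF1, the aldehyde dehydrogenase that makes sinapate and ferulate, had 3 and 0 counts in floral buds, against 9 and 17 in seedlings (FDR 0.000175, and 0.0506 by DESeq2). UGT84A2, which makes sinapoylglucose, had 4 and 1 counts in floral buds, against 13 and 5 in seedlings. Its call (FDR 0.0280) was lost without floral buds replicate 2 (FDR 0.220) and without seedlings replicate 1 (FDR 0.523), and also by DESeq2 (FDR 0.312) and limma-voom (FDR 0.146).

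Of 6 tested genes of monolignol glucosides and lignans, 0 were higher in floral buds and 4 were higher in seedlings. The median log2 fold change was -2.50, or -2.82 with PRR2 at its bound and without the gene at or under 3 counts in both stages. UGT72E1, a glucosyltransferase of hydroxycinnamaldehydes, had 0 and 1 counts in floral buds, against 29 and 30 in seedlings (FDR 2.99e-13 from the quasi-likelihood test of edgeR). Its relative UGT72E2, which also glucosylates the alcohols, had 6 and 7 counts in floral buds, against 31 and 41 in seedlings (FDR 1.33e-08). PRR2, a pinoresinol reductase of lignan synthesis, had 0 counts in both floral bud libraries, against 19 in each seedling library, at least 8.24-fold higher in seedlings when floral buds are set at 3 counts per library. BGLU46, a glucosidase of monolignol glucosides, had 2 and 3 counts in floral buds, against 10 and 8 in seedlings. Its call (FDR 0.0296) was lost whichever library was left out (FDR 0.0629 to 0.193).

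Of 10 tested transcription factors of lignin and secondary walls, 2 were higher in floral buds and 0 in seedlings, with a median log2 fold change of 0.89 (0.96 with NST1 at its bound and without 2 genes at or under 3 counts in both stages). NST1, a NAC factor that directs wall thickening in the anther endothecium, had 10 and 9 counts in floral buds, against 0 in both seedling libraries. That is at least 2.42-fold higher in floral buds when seedlings are set at 3 counts per library (FDR 0.000852 from the quasi-likelihood test of edgeR, 0.0530 by DESeq2). MYB32, a relative of the pathway repressor MYB4, had 15 and 25 counts in floral buds, against 5 and 2 in seedlings (FDR 0.00424), and lost the call without floral buds replicate 2 (FDR 0.180) and without seedlings replicate 2 (FDR 0.109), and also by DESeq2 (FDR 0.167) and limma-voom (FDR 0.129). MYB4 itself had 31 and 26 counts in floral buds, against 12 and 20 in seedlings (FDR 0.490).

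Markers of cell types that use the pathway also differed between the stages. The 7 xylem and secondary wall markers summed to 127 CPM in each floral bud library and to 171 and 175 CPM in seedlings. CESA4 was higher in floral buds (12 and 23 counts, against 0 in both seedling libraries, FDR 8.29e-07 from the quasi-likelihood test of edgeR). CESA4 overlaps AT5G44020 by 17 bp on the same strand. AT5G44020 had 51 and 44 counts in floral buds, against 192 and 228 in seedlings. XCP1 was higher in seedlings (13 and 14 counts in floral buds, against 16 and 32). XCP2, the most abundant of the 7 in both stages, had 41 and 32 counts in floral buds, against 57 and 49 in seedlings. It met the FDR limit (0.0107 by edgeR) but not the fold limit. CESA7 had 5 and 3 counts in floral buds, against 8 in each seedling library, and was not called. The log2 fold change was positive for 3 of the 7 markers, CESA4, CESA8 and IRX9. The call of XCP1 (FDR 0.0279) was lost without floral buds replicate 1 (0.175), floral buds replicate 2 (0.0624) or seedlings replicate 2 (0.496). The 4 Casparian strip markers of the endodermis summed to 6.23 and 8.47 CPM in floral buds, against 68.8 and 62.7 CPM in seedlings, and the defining markers CASP1 and CASP2 were at 0 in both floral bud libraries, while CASP4 was at 0 in all 4 libraries. All 3 that were tested, CASP1, CASP2 and ESB1, were higher in seedlings by the same test. The call of ESB1 was lost whichever library was left out (FDR 0.0604 to 0.189), and its counts are uncertain because AT2G28671 overlaps it by 1772 bp on the opposite strand. The call of CASP2 was lost when either floral bud library was left out. It was also lost by DESeq2 (FDR 0.193) and by the edgeR test with the replicate number as a block (FDR 0.108). The 5 tapetum and pollen wall markers summed to 728 and 517 CPM in floral buds, against 1.77 and 0 CPM in seedlings, and 4 of them (A9, MS1, CYP703A2 and ACOS5) had 0 counts in both seedling libraries. The part of these cell types in the differences of 4CL3, PAL4, PAL1 and the other genes was not tested.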

How the data were processed

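Per the labels, poly(A) RNA of 2 floral bud and 2 seedling samples of Col-0 was sequenced by ONT DRS, and the samples of a stage are biological replicates. The authors called bases with Guppy, aligned reads to TAIR10 with Minimap2 2.17 and quantified them with TrackCluster, assigning a read to a gene where they overlap by 5% or more, on either strand. The values deposited by the authors are estimated counts per gene without normalization. They are mostly not whole (83.8% of values above 0, tolerance 1e-06).

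The estimated counts were rounded and filtered to genes with 5 or more counts over the 4 libraries. The quasi-likelihood test of edgeR 4.0.16 was then applied in R 4.3.3, with upper-quartile factors. Upper-quartile scaling stood in for the quantile normalization that the methods name. Standard errors are the log2 fold change over the square root of F, and 95% intervals use 1.96 of them. Fold changes are floral buds over seedlings. A fold against a stage at 0 was set against 3 counts per library, and with 1 to 3 counts per library the ratio of summed counts has an exact interval. Alignments used Biopython 1.88, and gene models and sequences are from RefSeq TAIR10.1, to which all 24750 loci matched. The fits were also run on simulated counts in which every gene had the common dispersion, and the outcome is not reported here. Such counts cannot show how the fits do where genes differ in variance.

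The members and lists were chosen with earlier results of these data known. Named genes are the 10 members, the other core enzymes, overlapping neighbours, paralogs, and from each list at most 4 DEGs per direction, taken by FDR. MYB4, MS1, CASP4, XCP2, CESA7, CESA8, IRX9, DHS2 and ADT5 are named outside that rule, after their values were seen. So are the neighbours of 4CL5, ESB1, KFB39, CESA4, CESA8, CCR1 and CCR2. SNG2, S8H, SND1, MYB83 and CASP5 were not analysed here, and 1 further marker is not reported here. Alternatives were TMM or library size alone, DESeq2 1.42.0, edgeR's exact test, limma-voom 3.58.1 with quantile normalization, other filters, no fold limit, glmTreat, unrounded values, the replicate block, each library left out, and CPM without length.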

Additional observations from a re-analysis of the deposited data

How the results depend on the processing

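Of 147 fold changes of the 10 genes under the alternatives, 141 kept their call and 6 lost it, all of PAL1. Not all of these are new fits. The setting with no fold limit reuses the main fit, so a called gene cannot lose its call there. The glmTreat setting keeps the main fold changes and alters only the test. Of the 141, 5 had the other sign, all of genes not called (PAL2, C4H and C3'H), between -0.04 for C3'H without floral buds replicate 2 and 0.30 for PAL2 without seedlings replicate 1, with C4H at -0.02 without seedlings replicate 2. 4CL3 and PAL4 stayed DEGs in each of the 14 alternatives that tested them. The count of the 10 genes called higher in floral buds was 3, between 2 and 3 with each library left out, 2 by DESeq2, limma-voom, glmTreat and with no count filter, and 1 (PAL1) with at least 10 counts in each library, a filter that leaves out PAL4, 4CL3 and C3'H. PAL1 had a log2 fold change of 0.98 (FDR 0.0273) with no count filter, and an FDR of 0.707 by glmTreat. Over all genes, 1912 were called higher in floral buds, but 976 by DESeq2, 1223 by limma-voom, 448 with at least 10 counts in each library and 1154 by glmTreat. For seedlings the count was 1775, but 965 by DESeq2, 589 with that filter and 972 by glmTreat. The replicate numbers did not show a pairing of the libraries (correlation of deviations -0.06 over 6531 genes). A shift shared by a small part of the genes need not show in this correlation. With the replicate block 3 of the 10 genes were called higher in floral buds, and 1608 and 1487 of all genes were called higher in floral buds and in seedlings. The cause of these changes was not tested, except that the stricter filter tests fewer genes. The median log2 fold change of all genes was 0.06, and 0.15 with library size alone. Of 1194 fold changes of the other listed genes under the same alternatives, 1105 kept their call, 80 lost it and 9 gained one. Among them 23 values of 13 genes had the other sign, 0 of them of called genes. Ordered by CPM without length, PAL1 stood above HCT and PAL4 above 4CL3 in floral buds, and PAL2 above 4CL1 and PAL4 above C3'H in seedlings. Counts of 0 to 13 per library, as for C3'H, CCR1, CCR2 and PAL3, limit what can be seen at this depth.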
